A study of Mus musculus with 4 samples.

Results

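Among 2417 cells kept from mouse tail intervertebral discs, 292 cells were defined by the transcripts of Npy, Il11, Gdf5 and Cpm, and are called the Npy Il11 Gdf5 cells, or members, here. Intervertebral discs are the pads between vertebrae, with a gelatinous core, the nucleus pulposus, inside a ring of fibrocartilage, the annulus fibrosus. Single-cell RNA was sequenced from 2 control libraries and 2 libraries of punctured discs, 1 of each in each of 2 rounds. All mice were female wildtype C57BL/6 animals of 12 weeks. Injured discs had been punctured with a 30G needle at tail levels CC5/6 to CC9/10 and were taken 7 days later. Control discs were the unpunctured CC12/13 to CC16/17 levels of the same tails, so tail level and injury cannot be told apart. The discs of 6 mice, 30 discs per group, were pooled per the labels, which do not say whether these numbers hold for each round, and the cells were frozen, thawed and sorted for viability before capture. A library is therefore a pool of animals, and the tests measure the spread between pools.

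The members were chosen from their expression. A kept cell had at least 500 detected genes and under 10% mitochondrial UMIs, a UMI being 1 counted transcript molecule. Each gene was expressed as ln(1 + UMIs per 10000), standardised over all kept cells, and averaged over 7 panels of 4 genes each. A member had the Npy, Il11, Gdf5 and Cpm panel as its highest score, and a score above 0.5. The levels of these 4 genes in members, and any contrast of members with other cells, are thus descriptions without a test. Scores of members ran from 0.502 to 3.62 with a median of 1.08, and 28 members lay between 0.5 and 0.6. Just outside, 22 cells led by the panel scored 0.4 to 0.5. Those just inside averaged 1.76 Npy, 2.22 Il11, 3.16 Gdf5 and 2.92 Cpm UMIs per 10000. Those just outside averaged 0.527, 4.0, 2.44 and 1.12 in the same order. A second panel was also above 0.5 in 99 members, and in 62 of these it was the panel of Mmp3, Nos2, Cxcl1 and Cxcl2. Another 170 cells scored above 0.5 but higher on another panel, 98 of them on that same inflammatory panel.

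The 4 defining genes encode secreted or cell-surface proteins of different pathways. Npy encodes neuropeptide Y, a peptide transmitter of sympathetic nerves that is also made by some mesenchymal cells. Il11 encodes a cytokine of the interleukin 6 family that signals through its own receptor chain and gp130. Gdf5 encodes a bone morphogenetic protein of the embryonic joint interzone and of cartilage and disc development. Cpm encodes carboxypeptidase M, a membrane enzyme that removes basic residues from the ends of peptides. Cartilage-like cells of the inner annulus are known for aggrecan and type II collagen, and cells of the outer annulus for type I collagen.

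The upstream sequences of Npy and Il11 are shown because these genes had the highest and lowest share of their UMIs inside the members. They are the 250 bases before a RefSeq transcript start (GRCm38.p6). The Npy stretch is chr6:49822460-49822709 on the plus strand, where the gene spans 49822710 to 49829507. The Il11 stretch is chr7:4778142-4778391 on the minus strand, before the downstream of 2 annotated starts, and lies within the span of the gene (4772373 to 4782859). Capitals mark an AP-1 motif.
Npy: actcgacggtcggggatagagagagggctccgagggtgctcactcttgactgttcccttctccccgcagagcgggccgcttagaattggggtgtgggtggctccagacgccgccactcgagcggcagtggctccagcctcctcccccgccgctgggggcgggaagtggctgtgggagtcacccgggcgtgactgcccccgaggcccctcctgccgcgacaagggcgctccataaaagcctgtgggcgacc
Il11: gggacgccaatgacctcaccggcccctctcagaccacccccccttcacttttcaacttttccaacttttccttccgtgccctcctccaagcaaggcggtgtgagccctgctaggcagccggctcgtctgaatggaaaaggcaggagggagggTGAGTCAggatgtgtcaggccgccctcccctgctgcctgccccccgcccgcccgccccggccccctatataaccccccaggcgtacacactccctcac
The AP-1 motif was searched as TGANTCA on both strands. The TATA box was searched as TATAAA and the RUNX motif as TGTGGT, also on both strands. The shown Il11 stretch held only the AP-1 match, whose first base lies 98 bases before the start. The Npy stretch and those of Cpm and of the upstream Il11 start held none. The AP-1, TATA and RUNX motifs occurred in 6.75%, 12.4% and 14.0% of 32851 promoter stretches of the same length.

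Depth differed sharply between libraries. The libraries held 1114210, 9891258, 8943537 and 16972879 UMIs for control rounds 1 and 2 and injured rounds 1 and 2, the order used for all values that follow. They gave 199, 228, 588 and 1402 kept cells. Members contributed 11018, 115413, 1010737 and 1266290 UMIs, with median UMIs per member of 1111.5, 12114, 8755 and 5922. A single UMI was therefore 90.8 CPM (UMIs of the gene per 1e6 UMIs of the summed cells) in the control members of round 1 but 0.989 and 0.790 CPM in the injured members. Of the barcodes listed for the round 1 control library, 219 carried at least 0.3 times as many UMIs in the round 1 injured library and 225 carried fewer. Of the 6 members of that control library, 4 were such barcodes, with 784 to 1134 UMIs there and 31.2 to 36.7 times more in the injured library. In the injured library, 3 of these 4 barcodes were also members, and 15 of its 91 members had a barcode in the control list. Barcodes of round 2 were not used here. The other 2 members of control round 1 held 6948 of its 11018 member UMIs. Whether the RNA of the 4 shared barcodes came from the control or the injured sample was not tested, so every value for the control members of round 1 carries that doubt.

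The Npy Il11 Gdf5 cells made up a larger share of the injured libraries. They were 6 of 199 cells, 10 of 228 cells, 91 of 588 cells and 185 of 1402 cells. These are shares of 3.02% (exact 95% binomial interval 1.11 to 6.45), 4.39% (2.12 to 7.92), 15.5% (12.6 to 18.7) and 13.2% (11.5 to 15.1). The intervals cover counting error only. Both injured libraries lay above both control libraries, and their intervals did not overlap those of the controls. The mean was 3.70% ± 0.969 in controls and 14.3% ± 1.61 in injured discs (SD, n = 2 libraries each). The difference was 10.6 percentage points, 12.5 in round 1 and 8.81 in round 2. The exact two-sided permutation test gave p = 0.33, the smallest that 2 libraries against 2 allow. Without the shared barcodes of round 1, 2 of 159 control cells (1.26%) and 75 of 480 injured cells (15.6%) were members. When each cell was first thinned to 1000 UMIs, the shares were 4.57%, 7.01%, 14.3% and 14.3%. Because the rule reads the 4 transcripts, more cells of this kind and more of these transcripts per cell cannot be told apart.

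**Figure D1:**
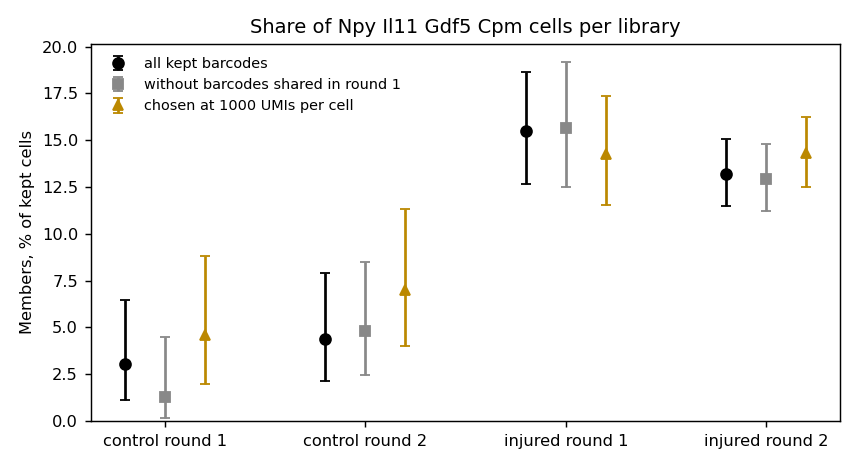
Members as a percentage of kept cells in each library, with exact 95% binomial intervals, for all kept barcodes, without the barcodes shared in round 1, and after thinning to 1000 UMIs per cell. Under each of the 3 choices both injured libraries lie above both control libraries.

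Npy was the most concentrated of the defining genes. The members held 1635 of 2479 Npy UMIs (66.0%), 888 of 1676 Cpm UMIs (53.0%), 827 of 2029 Gdf5 UMIs (40.8%) and 2310 of 5769 Il11 UMIs (40.0%), against 12.8% of all UMIs. Npy stood at 363, 52.0, 843 and 610.4 CPM in the members and at 27.2, 20.4, 85.7 and 37.1 CPM in all other kept cells. The round 2 control members were low, with 6 Npy UMIs in all, and the round 1 value stood for 4 UMIs. The mean of the injured libraries was 727 ± 164 CPM (SD, n = 2). Il11 stood at 817, 529, 1197 and 813 CPM in members and at 76.3, 55.1, 414 and 121 CPM in the other cells. The round 1 injured library was therefore the one in which Il11 was also high outside the members. Gdf5 stood at 272, 407, 216 and 441 CPM against 28.3, 43.8, 73.6 and 82.5 CPM. Cpm stood at 454, 633, 237 and 450.1 CPM against 63.2, 89.0, 58.1 and 33.9 CPM. For each of the 4 genes and in every library the members were above the other cells, as the rule requires on average. Among the cells led by the panel of Grem1, Cnmd, Sfrp5 and Frzb (Grem1 Cnmd cells), Gdf5 was highest in injured round 2, at 234 CPM, and Cpm in control round 2, at 168 CPM. In the cells led by Fmod, Comp, Prg4 and M1ap (Fmod Comp Prg4 cells) the highest values were 74.1 CPM for Gdf5 and 44.5 CPM for Cpm, both in control round 1.

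**Figure D2:**
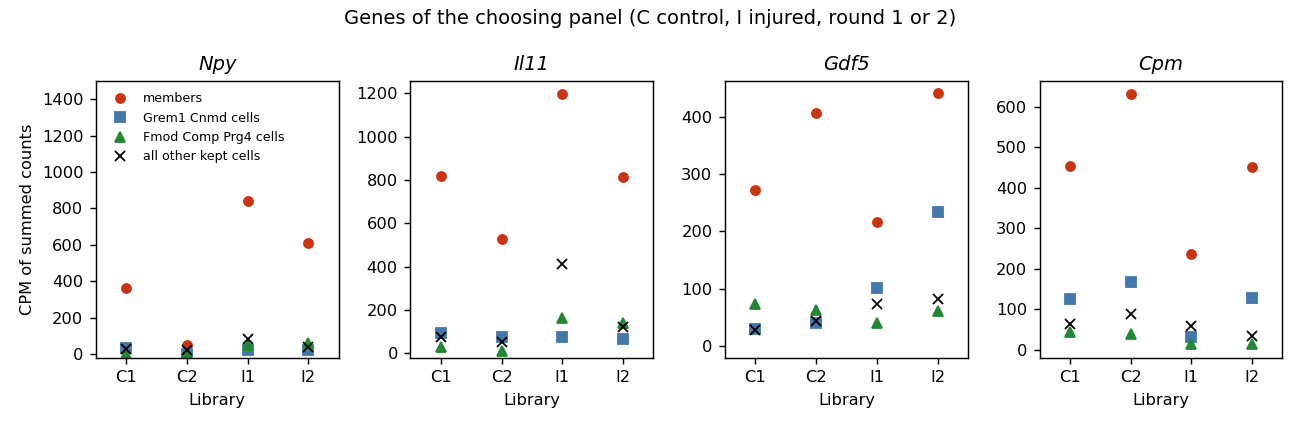
CPM of UMIs summed per library for the 4 defining genes in members, Grem1 Cnmd cells, Fmod Comp Prg4 cells and all other kept cells. Members lie highest in each panel, and Npy in the round 2 control members is near the other cells at 52.0 CPM.

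Few members carried all 4 transcripts. Of the 292 members, 11 had UMIs of 1 of the 4 genes, 132 of 2, 102 of 3 and 47 of all 4. Gdf5 and Cpm were found together in 178 members, Il11 and Gdf5 in 127, and Il11 and Cpm in 123. Pairs with Npy were rarer, with 105 members for Gdf5, 95 for Cpm and 92 for Il11. Npy UMIs were seen in 49.7% of members and in 11.7% of other cells, at median depths of 6830.5 and 6071 UMIs. As a level of free RNA, 90 cells were taken that had at least 4 of 8 macrophage markers and no panel score above 0.5. That second condition left out cells with high scores on the defining panel, so it limits the shares of the 4 genes there. In these macrophage-marker cells the Npy share was 14.4% at 4026.5 UMIs. After thinning to 1000 UMIs per cell the Npy shares were 26.8%, 3.14% and 4.44% in members, other cells and macrophage-marker cells. In injured round 1, however, Npy was seen in 20.7% of other cells and in 2 of 27 macrophage-marker cells (7.41%), and after thinning in 5.70% and in 0 of 27, which allows a share of up to 11.1%. In injured round 2 the shares were 10.6% and 16.7%, so the order differed between the libraries. Il11, Gdf5 and Cpm were seen in 59.2%, 78.4% and 76.0% of members, in 22.9%, 25.2% and 18.9% of other cells, and in 2.22%, 2.22% and 3.33% of the macrophage-marker cells. A small number of cells supplied much of the RNA. In injured round 1, 5 of 91 members held 33.7% of Npy UMIs and 46.7% of Il11 UMIs. In injured round 2, 5 of 185 members held 32.1% and 35.0%.

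The members fell into Npy-, Cpm-, Gdf5- and Il11-led cells when each was assigned to its highest standardised gene, in numbers of 91, 86, 70 and 45. The make-up differed between the injured libraries. Round 1 had 39 Npy-led, 20 Il11-led, 17 Cpm-led and 15 Gdf5-led members, and round 2 had 50, 23, 60 and 52 in the same order. In Npy-led members Npy reached 1710 CPM in round 1 and 2113 CPM in round 2, but it was 50.1 to 124 CPM in the other members. Il11 reached 3681 and 2836 CPM in Il11-led members, and stayed at 671 and 837 CPM in Npy-led members, above the 198 to 533 CPM of the Gdf5- and Cpm-led ones. Other matrix genes were spread over these cells. Acan, the core protein of aggrecan, ranged only from 3146 to 4057 CPM over the 8 combinations of library and leading gene. Col2a1, type II collagen, was lowest in Npy-led cells of round 2, at 3102 CPM against 8164 to 8981 CPM in the others. In round 1 it was highest in Il11-led members, at 7669 CPM, with 3984 to 4931 CPM elsewhere. Mgp, the calcification inhibitor matrix Gla protein, was 6268 CPM in Npy-led and 5438 CPM in Cpm-led members of round 2, compared with 2140 CPM in Gdf5-led ones. Round 1 did not repeat that order, since Gdf5-led members had 2505 CPM and Il11-led members the lowest, at 1606 CPM. These divisions were made from the data and were not tested.

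**Figure D3:**
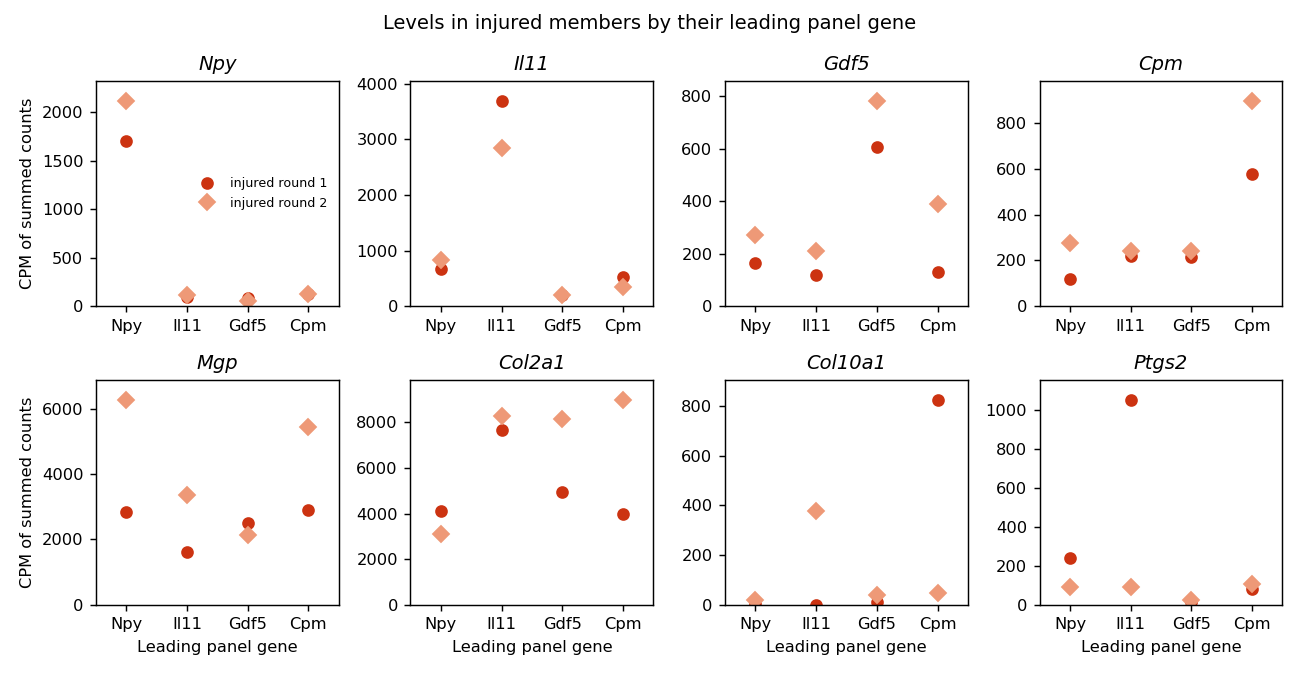
CPM of summed UMIs of 8 genes in injured members, split by the defining gene with the highest standardised value, for both injured libraries. The upper row shows the genes that made the split, and the lower row shows that the order of Mgp differs between libraries. Col10a1 is high in Cpm-led members of round 1 and Il11-led members of round 2, and Ptgs2 reaches 1049.6 CPM, in Il11-led members of round 1. In injured round 1, 1 member held 150 of the 153 Col10a1 UMIs, and 1 member held 37.2% of the 349 Ptgs2 UMIs.

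Some transcripts came from very few members. Col10a1, the collagen of hypertrophic cartilage, had the largest mean log2 ratio to other cells in the injured libraries among genes outside the panels, at 151 and 89.2 CPM against 7.28 and 4.04 CPM. Yet 150 of its 153 UMIs in round 1 lay in a single member, and 12 of 185 members carried its 113 UMIs in round 2. Ibsp, the bone sialoprotein gene, had 104 UMIs in 3 members of injured round 1 and none in the other member groups. Ptgs2, which encodes the prostaglandin enzyme cyclooxygenase, stood at 345 CPM in injured round 1, where 1 member held 37.2% of its 349 UMIs, and at 78.2 CPM in round 2. In contrast, Mgp was carried by 68 of 91 and 150 of 185 injured members, and Sox9 by 86 and 179.

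The members carried transcripts of several cartilage genes and little type I or III collagen. Against all other kept cells, 13 of 8163 genes (0.159%) were over 2-fold higher in both injured libraries, and 122 (1.49%) were over 2-fold lower. The log2 ratios used here are on the log2(CPM + 10) scale, which understates differences of low genes. The 13 genes were the 4 defining ones with Mgp, Col10a1, Pappa, Meltf, Cib2, Clba1, Barx1, P2ry14 and Npr3. Mgp stood at 454, 2383, 2547 and 4392 CPM in members and at 415, 1014, 902 and 995 CPM in other cells. Its excess was largest in injured round 2, with a log2 ratio of 2.13, and it was near 0 (0.13) in control round 1. Meltf, which encodes the membrane iron-binding protein melanotransferrin, stood at 635, 944, 534 and 599 CPM against 133, 106, 259 and 166 CPM, higher in all 4 libraries. Pappa, a protease of insulin-like growth factor binding proteins, stood at 97.9 and 63.2 CPM in the injured libraries against 26.4 and 16.4 CPM. Barx1, a homeobox gene of the joint interzone, stood at 0, 60.7, 42.5 and 36.3 CPM against 38.1, 43.8, 15.5 and 9.24 CPM.

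Of the cartilage matrix genes, Acan stood at 1815, 4852, 3430.2 and 3421 CPM against 1182, 935, 1946 and 1324 CPM in other cells. Hapln1, the link protein that holds aggrecan on hyaluronan, stood at 182, 1620.3, 1048 and 835 CPM against 214, 272, 618 and 385 CPM. Acan was therefore higher in all 4 libraries and Hapln1 in all but control round 1, where it had few UMIs. The Grem1 Cnmd cells had Acan at 1343, 1209, 3573 and 2810.1 CPM, so in injured round 1 it was not higher in the members than in that class. Sox9, the transcription factor of cartilage, stood at 7624, 1724, 2002 and 1364 CPM against 2287, 1691, 1429 and 859 CPM. Col2a1 stood at 908, 7763, 4946 and 7137 CPM against 955, 1314, 5553 and 5324 CPM, higher in the members of control round 2 and injured round 2 only, with a log2 ratio of 2.55 in the former and 0.42 in the latter. It was seen in 95.9% of members and 63.5% of other cells. Of 19 cartilage matrix genes outside the panels and above 10 CPM in either cell group, 0 were over 2-fold higher in both injured libraries and 4 were over 2-fold lower, namely Cilp2, Epyc, Chad and Bgn. The median log2 ratio of the list was -0.70 in round 1 and -0.40 in round 2. Chad, the collagen-binding chondroadherin, stood at 478 and 479 CPM in injured members, and its log2 ratio to other cells was -2.0 and -2.04. Of the 8136 genes outside the panels, 9 (0.111%) were over 2-fold higher in both and 107 (1.32%) were over 2-fold lower.

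Of 17 fibrous matrix genes, 10 were over 2-fold lower in both injured libraries and 0 higher. The 10 were Col1a1, Col1a2, Col3a1, Col5a1, Col5a2, Col12a1, Fbn1, Mfap5, Lum and Fbln1. Their list had a median log2 ratio of -1.18 in round 1 and -2.21 in round 2, where the medians of all genes were 0.05 and 0.03. Col1a1, the main collagen of the outer annulus, stood at 90.8, 8.66, 143 and 102 CPM in members and at 1249.5, 1892, 4435 and 9544 CPM in other cells. Col3a1 stood at 0, 78.0, 113 and 118 CPM against 327, 731, 767 and 4070.0 CPM. Both collagens were low in members of every library. Not every fibrous gene followed, since Col6a3, a chain of the pericellular type VI collagen, stood at 2719.8 and 2855 CPM against 2246 and 2251 CPM. Spp1, the matrix phosphoprotein osteopontin, stood at 1271, 295, 3754 and 1604 CPM against 16115, 13989.8, 12157 and 10819.9 CPM.

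The remaining lists are given against the same background of 0.111% of genes outside the panels over 2-fold higher and 1.32% over 2-fold lower. Of 13 joint interzone and articular surface genes, Barx1 was the 1 over 2-fold higher in both injured libraries. Of 29 wound healing and TGF-beta genes 0 were higher and 6 lower, namely Spp1, Thbs1, Thbs2, Plau, Ccn4 and Acta2. Inhba, which encodes the activin A subunit, stood at 4084, 1187, 4948 and 2015 CPM in members and 1668, 736, 4513 and 737 CPM in other cells, higher in each library but by a log2 ratio of only 0.13 in injured round 1. Fn1, fibronectin, stood at 6807, 31496, 14829.8 and 22337 CPM against 4097, 5199, 16351 and 16810.3 CPM, which overlap in the injured libraries. Of 19 inflammatory mediators outside the panels 0 were higher and 2 lower (Tnf and C3). Of 16 matrix proteases and inhibitors, and of 9 interferon response genes, 0 were higher and 1 lower. None of 26 antioxidant, 23 glycosaminoglycan synthesis, 22 immediate early, 21 glycolysis and hypoxia, 18 transcription factor, 16 proliferation or 12 posterior Hox genes passed 2-fold in either direction in both injured libraries. Gpx3, a secreted glutathione peroxidase, stood at 2087, 6637, 3534 and 4531 CPM against 915, 1366, 2625 and 2459 CPM, higher in all 4 libraries. Top2a, a gene of dividing cells, stood at 18.8 and 4.74 CPM in injured members and 10.2 and 28.7 CPM in other injured cells.

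**Figure D4:**
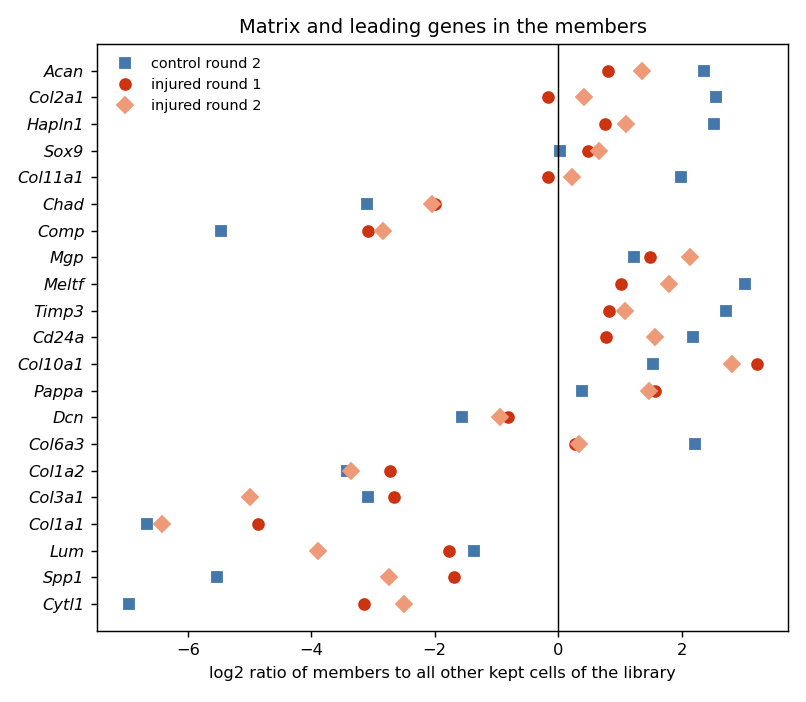
Difference in log2(CPM + 10) between members and all other kept cells of the same library for 21 named matrix and leading genes, in control round 2 and both injured libraries. Col1a1 lies at -6.67, -4.86 and -6.42, and Mgp at 1.22, 1.49 and 2.13. Comp is a gene of the choosing panels, and 150 of the 153 Col10a1 UMIs in injured round 1 come from 1 cell.

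By mean ratio over all 4 libraries, the 20 genes set highest above other cells were Meltf, Fabp7, F13a1, Fam89a, Rab11fip4, Jam2, Timp3, Syn3, Rnasek, Lgr6, Chst11, Tmem192, Slc22a4, Acan, Cib2, Zfp52, Ss18l2, Mgp, Sec11c and Glis3. Timp3, the matrix-bound metalloproteinase inhibitor, stood at 1906, 5164, 4246 and 2665 CPM against 767, 776, 2390.0 and 1253 CPM. Syn3 spans Timp3 on the opposite strand (chr10:86055125-86498896 and chr10:86300372-86349506), and use of strand in the counting was not given in the sources used here, so the values of Syn3 are uncertain. Jam2, a junctional adhesion molecule, stood at 90.8, 468, 358 and 341 CPM against 33.8, 67.2, 186 and 129 CPM. F13a1, the coagulation factor XIII A chain, stood at 90.8, 468, 181 and 120.0 CPM against 68.6, 9.81, 93.9 and 40.2 CPM. When only the injured libraries were averaged, a choice made after the data were seen, 8 of these 20 genes stayed among the 20 highest, and Col10a1, Mgp and Pappa led.

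Another chondrocyte-like class, the 229 Grem1 Cnmd cells, differed from the members in Mgp most of all genes set higher. Mgp was 173, 753, 32.3 and 153 CPM there. Ecm1, an extracellular matrix glycoprotein, was 272, 399, 519 and 614 CPM in members and 55.5, 37.2, 91.5 and 99.5 CPM in Grem1 Cnmd cells. Chit1, Fabp7, Gpx3, Ereg, Syn3, Jam2, Timp1 and Prdx5 completed the 10 genes set highest. Genes set lowest in the members were Cytl1, Ucma, Cilp, Chodl, Fxyd3, Icam1, Scara3, Fbln1, Col9a3 and Nrtn. Cytl1, a secreted chondrocyte factor, stood at 90.8, 8.66, 135 and 250.3 CPM in members and at 3264, 2915, 9437 and 2586 CPM in Grem1 Cnmd cells. Ucma, a Gla-rich cartilage protein, stood at 0, 0, 4.95 and 15.0 CPM against 353, 389, 151 and 405 CPM. Both genes were low in members of every library. Against the 299 Fmod Comp Prg4 cells the lowest were Col1a1, Col3a1, Col1a2, Igfbp6, Cytl1, Spp1, Chad, Cilp, Fbln1 and Thbs2. Cpe, which encodes carboxypeptidase E of peptide hormone processing, led the genes set higher, at 908, 641, 344 and 355 CPM against 474, 12.6, 30.1 and 40.0 CPM. Ereg, Crispld1, Cox4i2, Meltf, Irx3, Zfp52, Fbxo2, Slc25a37 and Hist1h4h followed. When only the injured libraries were averaged, of these genes only Cpe, Cox4i2, Zfp52 and Meltf stayed among the 10 highest, and Col10a1 led. Of the 10 set highest against the Grem1 Cnmd cells, only Mgp and Ecm1 stayed.

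Receptors of the secreted factors were detected unevenly. Npy1r and Npy2r, receptors of neuropeptide Y, and Dpp4, a peptidase that trims it, had 0 UMIs in the members (0 of 292 cells, which allows a share of up to 1.03% of cells with a UMI). Among all other cells, Npy1r reached 1.64 CPM at most. Il11ra1, the receptor chain for IL-11, stood at 182, 17.3, 39.6 and 34.7 CPM in members and 58.8, 83.8, 43.5 and 47.1 CPM in other cells. Il6st, which encodes gp130, stood at 74.2 and 67.1 CPM in injured members and 155 and 113 CPM in other injured cells. Receptor chains that bind Gdf5 were detected inside and outside the members. Bmpr1b stood at 18.8 and 20.5 CPM in injured members, with log2 ratios to other cells of -0.40 and 0.11. Bmpr1a stood at 70.2 and 48.2 CPM against 50.2 and 45.5 CPM in other injured cells. Bmp2 stood at 90.8, 823, 2159 and 796 CPM in members and 855, 331, 2567 and 437 CPM in other cells. Gdf6, the relative of Gdf5, stood at 57.4 and 115 CPM against 45.5 and 43.0 CPM in the injured libraries. Of 23 BMP and GDF signalling genes measured, 0 were over 2-fold higher and 2 over 2-fold lower in both injured libraries, where the shares of all genes outside the panels were 0.111% and 1.32%. The numbers were 0 and 0 of 21 for IL-11 and gp130 signalling, and 0 and 1 of 9 for neuropeptide Y, its receptors and peptide processing, outside the defining genes.

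Markers of macrophages, vascular cells and neurons were low in the injured members. The summed level of 8 macrophage markers was 14 and 44 CPM in injured members and 365 and 434 CPM in other injured cells, and 4 and 6 of the 8 genes had any UMI. In control members of round 1 the same sum of 182 CPM stood for 2 UMIs. The 4 neutrophil markers summed to 6.93 and 25.3 CPM in injured members, the latter from 32 UMIs, and to 22.8 and 15.6 CPM in other injured cells, so that they were higher in the members of round 2. Endothelial markers summed to 27 and 6 CPM, mural markers to 5 and 2 CPM and neuronal markers to 7 and 8 CPM in injured members, where Snap25 and Stmn2 were at 0. The nucleus pulposus and hypertrophic chondrocyte lists were higher in the injured members than in other injured cells, and the osteoblast list was so in round 1. The nucleus pulposus list summed to 1026 and 969.8 CPM in injured members against 603 and 326 CPM, and was carried by Cd24a, at 1023 and 967 CPM in injured members, whereas Krt8 was at 0 and Krt18 at 0.989 and 0 CPM, and T and Shh had no UMI. The hypertrophic chondrocyte list summed to 194 and 117 CPM in injured members against 87.2 and 47.8 CPM, most of it Col10a1, of which 150 of 153 UMIs in round 1 lay in 1 member. The osteoblast list summed to 107 CPM against 7.83 CPM in injured round 1, where 104 of 108 UMIs were Ibsp of 3 members, and to 1.58 CPM against 9.01 CPM in round 2. The Schwann cell list, at 167 and 261 CPM against 214 and 239.9 CPM, was nearly all S100b, a gene that cartilage cells also express. The part of other cells in these results was not tested. The label of inner annulus cells rests on this expression, since position in the disc was not measured. Acan, Sox9 and Col2a1 were present with little Col1a1, but the Grem1 Cnmd cells shared that profile. The summed level of the 10 cartilage-like markers did not set the members apart either, at 13295 and 14587 CPM in injured members, 14116 and 12629 CPM in other injured cells, 20816 and 17834 CPM in injured Grem1 Cnmd cells and 19935 and 22634 CPM in injured Fmod Comp Prg4 cells. Only 8 of the 10 lie outside the choosing panels. Cnmd and Comp helped to choose the Grem1 Cnmd and Fmod Comp Prg4 cells, so the rule itself raises the sums of these classes. In the Grem1 Cnmd cells, Col1a1 stood at 91.5, 145, 96.8 and 71.1 CPM and Col3a1 at 13.1, 25.4, 37.7 and 21.3 CPM. The summed level of 9 outer annulus or fibroblast markers was 2814, 2790.0, 7572 and 6380.1 CPM in members and 1493, 1223, 6779 and 3236 CPM in Grem1 Cnmd cells.

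Within the members, injured and control discs were compared. The edgeR quasi-likelihood test over 5883 genes called 2 (0.034%) at a Benjamini-Hochberg adjusted p under 0.05, and 169 had an unadjusted p under 0.05. Ccl2, a chemokine that attracts monocytes, stood at 0, 0, 137 and 381 CPM. It had 0 UMIs among 126431 in control members and 621 among 2277027 in injured members, where 10 of 91 and 36 of 185 members carried it. Against a limit of 3 UMIs over the control group this is at least 11.5-fold higher (edgeR adjusted p = 0.00281), a bound that covers counting error only. The bound was 1.00-fold without control round 2, where the call ended (adjusted p = 0.386), and 5.75-fold without injured round 2. The call also ended without injured round 1 (adjusted p = 0.113) and with members chosen at a score above 1 (adjusted p = 0.0999). The UMIs were unevenly spread over cells, with 94.9% and 52.6% of them in 5 members of each injured library. By cells, 0 of 16 control members allows a share of up to 18.8%, beside 19.5% in injured round 2 and the lower share of round 1. In the control libraries Ccl2 was present in other cells, at 871 and 117 CPM. With round as a block, since both groups of a round came from the same animals, the adjusted p was 0.0557 and 0 genes were called (83 at an unadjusted p under 0.05). DESeq2 also called 0 (59 unadjusted). When members were chosen at 1000 UMIs per cell, the Ccl2 log2 change was 0.83 with an adjusted p of 0.96. Apoe, an apolipoprotein gene outside the naming rule and chosen after its values were seen, was called lower with a log2 change of -4.69 ± 0.80 (SE, edgeR adjusted p = 2.72e-05). All 51 of its control UMIs were in 2 members of control round 1, and without that library, when the control members held no Apoe UMI, the fitted change was 8.09 with an adjusted p of 0.495.

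Of the fixed gene lists, only the inflammatory mediators held a called gene, Ccl2, among 13 tested outside the panels (1 higher, 0 lower). None of 22 tested BMP and GDF signalling genes, 16 IL-11 and gp130 genes, 15 cartilage matrix genes or 12 fibrous matrix genes were called. The background is 0.034% of all genes, which these counts are to be read against. Their median log2 changes were -0.15, 0.00, 0.30 and 0.58, beside 0.18 over all genes tested. The outer annulus or fibroblast markers had a higher median, 1.73 over 7 tested genes, of which 0 were called and 4 had an unadjusted p under 0.05. Their summed level in members was higher in both injured than in both control libraries, and the part of such cells in the injury contrast was not tested. Counts were simulated at these depths with a dispersion (variation between libraries beyond counting error) of 0.1 for every gene. That value was not taken from these data, and changes were put only into genes of at least 50 CPM on average. The recovered shares need not hold for the measured counts. In the simulated counts the test recovered 21.5% of 4-fold and 77.0% of 16-fold changes. With round as a block it recovered 0 of 200 4-fold and 151 of 200 16-fold changes.

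The response to injury was compared between the members and the Grem1 Cnmd cells. In an edgeR model with a term for each library, which also takes up round, and a class by injury term, 13 of 5248 genes (0.248%) were called, 8 with a higher change in the members and 5 with a lower one, and 229 had an unadjusted p under 0.05. In counts simulated with the same fixed dispersion, this test recovered 6 of 200 4-fold and 162 of 200 16-fold differences. Without the shared barcodes of round 1, 7 were called, and 6 of them were among the 13, namely F13a1, Fxyd2, Ibsp, Mgp, Slpi and Spp1. Mgp went from 454 and 2383 CPM in control members to 2547 and 4392 CPM in injured members, while the Grem1 Cnmd cells went from 173 and 753 CPM to 32.3 and 153 CPM. The injured members lay above the control members and the injured Grem1 Cnmd cells below their controls, without overlap. The difference of the log2 changes was 4.12 ± 0.66 (SE, edgeR adjusted p = 8.13e-07). Spp1 went from 1271 and 295 CPM to 3754 and 1604 CPM in members, and from 13127 and 7589 CPM to 7936 and 2799 CPM in Grem1 Cnmd cells, a difference of 3.51 ± 0.53 (edgeR adjusted p = 2.03e-07). The osteoblast markers, Ibsp among them, were also lower in injured Grem1 Cnmd cells, at 1748 and 119 CPM in controls and 96.8 and 10.7 CPM in injured libraries, and their part in the differences for Spp1 and Ibsp was not tested. F13a1 moved the other way, from 90.8 and 468 CPM to 181 and 120.0 CPM in members and from 19.6 and 7.83 CPM to 139.9 and 114 CPM in Grem1 Cnmd cells (difference -4.41 ± 0.76, edgeR adjusted p = 8.77e-06). Its value was -1.09 without control round 2 (adjusted p = 0.76). Fxyd2, a regulatory subunit of the sodium pump, had 0, 52.0, 65.3 and 172 CPM in members against 108, 41.1, 5.38 and 3.55 CPM (difference 5.14 ± 1.14, edgeR adjusted p = 0.00425). Without control round 2 the control members held no Fxyd2 UMI, and the fitted difference was 13.49. With members chosen at a score above 1 the Fxyd2 difference was 5.31 and no longer called (adjusted p = 0.118). Without injured round 1 no gene was called, and without injured round 2 1 gene was called, while leaving out control round 1 or control round 2 gave 30 and 32.

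**Figure D5:**
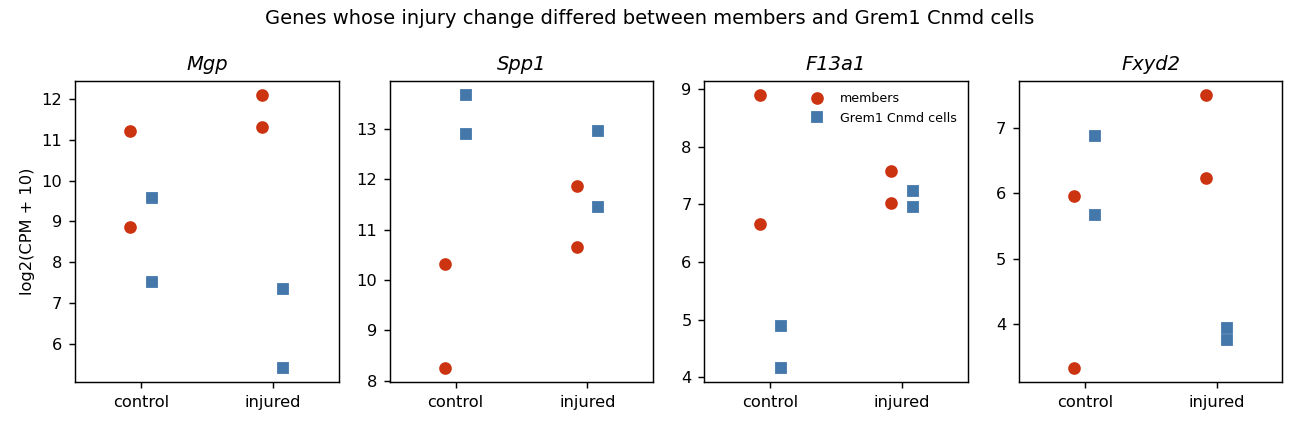
log2(CPM + 10) of Mgp, Spp1, F13a1 and Fxyd2 in members and Grem1 Cnmd cells, 1 point per control and injured library. Mgp and Spp1 are higher in injured than in control members and overlap or lie lower in injured Grem1 Cnmd cells, and Fxyd2 has 0 UMIs in the control members of round 1.

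The same test against the Fmod Comp Prg4 cells called 23 of 6260 genes (0.367%), 19 with a higher change in the members and 4 with a lower one, and 326 had an unadjusted p under 0.05. In counts simulated with the same fixed dispersion, it recovered 0 of 200 4-fold and 134 of 200 16-fold differences. These cells numbered only 11 and 7 in the control libraries. Without the shared barcodes 2 were called, Apoe and Wif1, and both were among the 23. Wif1, a secreted Wnt inhibitor, stood at 1089, 113, 91.0 and 82.1 CPM in members and at 267, 37.7, 305 and 304 CPM in Fmod Comp Prg4 cells. Its log2 changes differed by -3.18 ± 0.63 (SE, edgeR adjusted p = 0.000388). In the control members that rests on 25 UMIs, 12 of them in round 1. With a class by round term added as a replicate block, a fit chosen after the data were seen, 5 genes were called, and neither Apoe (adjusted p = 0.602) nor Wif1 (adjusted p = 0.199) was among them, with differences of -4.67 and -3.20. With members chosen at a score above 1, Wif1 was -2.85 and not called (adjusted p = 1.00). Leaving out 1 library gave 82 calls without control round 1, 78 without control round 2, 2 without injured round 1 and 2 without injured round 2. The calls left without injured round 1 or without injured round 2 were Cytl1 and Cilp. Wif1, at -3.50 and -3.24, and Apoe, at -5.38 and -4.92, were not among them. Both comparisons use the same members, so their values are not independent of each other.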

How the data were processed

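Droplet single-cell RNA was measured in 4 libraries. The deposited values are UMI counts per gene and barcode for 32285 genes, not normalized, made by the authors with Cell Ranger 6.0.0 (control round 1) or 4 (the others) on mm10, per the submitters' processing notes. Only the control round 1 matrix was restricted to a short list of barcodes, so the authors did not filter the libraries alike. Cells, scores and members were computed as described above with Python 3.11.15. Doublets were left in. In an alternative, Scrublet in scanpy 1.11.5 took out 0, 0, 3 and 16 cells.

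UMIs were summed per library and class. Tests used edgeR 4.0.16 (R 4.3.3) with TMM scaling, filterByExpr and Benjamini-Hochberg adjustment over all genes tested, with panel genes in the fit but not read. DESeq2 1.42.0 was an alternative. The main injury fit held injury only and did not pair the libraries. Round was a block in an alternative fit because, per the labels, both groups came from the same animals. The round deviations of control and injured members correlated at 0.21 over 5883 genes. Gene positions are from GENCODE M21 (GRCm38).

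Genes named by rule are the 12 largest called rises and falls within the members (at least 50 CPM in a group, same direction in both rounds), the 20 highest against other cells, the 10 highest and lowest against each compared class, the 10 interaction genes of smallest p, and up to 4 per list. Further genes, among them Gdf6, Bmpr1a, Bmpr1b, Il11ra1, Il6st, Npy1r, Top2a and Barx1, were named outside this rule. Ribosomal, mitochondrial and unnamed genes were left out. Members and lists were chosen with earlier results of these data known. Tests on simulated data ran first. Alternatives covered normalization, count filter, round block, score threshold, thinning, cell filter, shared barcodes, doublets and each library left out. No protein sequences were used.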

Additional observations from a re-analysis of the deposited data

Results flagged for a closer look

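The genes listed here changed differently with injury in the members and in another class, by the class by injury term of the edgeR model with an adjusted p under 0.05. Values are differences of the log2 injury changes, members minus the other class. Against the Grem1 Cnmd cells, Spp1 (3.51), Mgp (4.12), Cilp (6.74), Ibsp (11.86), Fxyd2 (5.14), Zfp36l2 (3.42) and Ccl2 (8.99) were higher, and F13a1 (-4.41), Slpi (-4.94) and Lcn2 (-2.91) lower. The control members held 0 UMIs of Ccl2 and Ibsp and 1 of Cilp, so these fitted values depend on the prior count and are no bound, and the 104 Ibsp UMIs all lay in injured round 1. Without the shared barcodes Cilp was 1.55 (adjusted p = 1.00), Zfp36l2 2.84 (0.279), Ccl2 8.81 (0.0546) and Lcn2 -2.34 (1.00), which ended those calls. Leaving out 1 library also moved values by over 1.5 times. Slpi was -9.19 without control round 1, -3.19 without control round 2 and -2.73 without injured round 2. Lcn2 was -1.43 without control round 2 and -1.01 without injured round 2. Without control round 2, F13a1 was -1.09, Fxyd2 13.49, Zfp36l2 10.02 and Cilp 11.01, and Ibsp was 5.26 without injured round 1. With a class by round term, chosen after the data were seen, the calls for Zfp36l2 (3.20, adjusted p = 0.328) and Lcn2 (-2.93, 0.0683) ended, with differences near those above. With members chosen at a score above 1, the calls for Fxyd2 (5.31, adjusted p = 0.118), Ibsp (6.51, 0.995), Cilp (4.64, 0.276), Zfp36l2 (5.39, 0.0641) and Ccl2 (8.57, 0.477) ended.

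Against the Fmod Comp Prg4 cells, Cytl1 (5.75), Cilp (6.21), Fos (2.90), Abi3bp (2.60), Hspa1b (2.73), Cryab (2.62), Hspa1a (2.55) and Penk (10.03) were higher, and Apoe (-4.90) and Wif1 (-3.18) lower. Control members held 0 UMIs of Penk, 1 of Cilp and 2 of Cytl1. Fos, Hspa1a and Hspa1b are genes of the response to dissociation, and all 3 had 0 UMIs in the control members of round 1. Without the shared barcodes the calls for Cytl1 (1.31), Cilp (0.68), Fos (2.62), Abi3bp (2.90), Hspa1b (2.72), Cryab (2.55), Hspa1a (2.42) and Penk (2.46) ended. Without control round 2, Hspa1b was 12.45, Hspa1a 12.88, Fos 10.45, Cilp 13.53 and Cryab 5.80. Without control round 1, Cryab was 1.35 and Penk 2.03, and Apoe was 0.87 (adjusted p = 1.00), the opposite direction. With the class by round term the calls for Fos (2.98, adjusted p = 0.19), Cryab (2.88, 0.204), Penk (10.37, 0.233), Apoe (-4.67, 0.602) and Wif1 (-3.20, 0.199) ended, again with differences near those above. With members chosen at a score above 1, Penk (11.02, adjusted p = 0.015) was still called and Apoe was not among the genes tested. The calls for Cytl1 (4.57), Cilp (3.70), Fos (2.23), Abi3bp (1.86), Hspa1b (1.42), Cryab (4.94), Hspa1a (3.86) and Wif1 (-2.85) ended, with adjusted p from 0.705 to 1.00.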

How the results depend on the processing

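The share of members stayed higher in injured discs under every alternative, by 5.85 points with a score above 1, 8.49 at 1000 UMIs, 10.1 with 250 genes and no mitochondrial limit, 11.2 without shared barcodes and 9.49 to 11.8 with 1 library left out. The number of genes called by injury, 2, became 0 with the replicate block that pairs the rounds, 0 with DESeq2, 0 with a score above 1, 4 with 250 genes, 8 at 1000 UMIs and 3 to 13 with 1 library left out. The 13 interaction calls against Grem1 Cnmd cells became 7 without a count filter, 6 with a score above 1, 7 without shared barcodes and 0 to 32 with 1 library left out. The 23 against Fmod Comp Prg4 cells became 11, 1, 2 and 2 to 82. A class by round term, a replicate block chosen after seeing the data, gave 10 calls against Grem1 Cnmd cells and 5 against Fmod Comp Prg4 cells. Where an arm was left with 1 library, it was assumed to vary like the others. Apoe reversed without control replicate 1, to 8.09 (adjusted p = 0.495) for injury and 0.87 (1.00) for the interaction with Fmod Comp Prg4 cells, because all its control UMIs were in that library; its other values with 1 library left out went down to -5.77 and -5.38. The causes of the other changes were not tested. Control members, 16 cells, limit every contrast with injury.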
